A study of Mus musculus with 9 samples.

Results

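The cytosolic ribosomal protein genes of 5TGM1 mouse myeloma cells were taken by symbol, as every gene named Rpl or Rps followed by a number, plus Rpsa, Rplp0, Rplp1 and Rplp2, without those marked as pseudogenes and without the Rps6k kinases. The rule gave 94 of the 53077 genes in the tables, and 86 of them were among the 13834 genes with enough counts to be tested. Of the 94, 77 were core ribosomal proteins, 46 of the large (60S) subunit and 31 of the small (40S) subunit. A further 8 were paralogs with a symbol of their own (Rpl3l, Rpl7l1, Rpl10l, Rpl22l1, Rpl36al, Rpl39l, Rps4l and Rps27l), and 8 were retrotransposed or related copies (Rps27rt, Rpl37rt, Rps3a2, Rps3a3, Rpl6l, Rpl32l, Rps12l1 and Rps23rg1). The last, Rps19bp1, encodes a binding partner of a ribosomal protein and was caught by its name.

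RNA was measured by oligo-dT primed sequencing in 3 groups of 3 samples. All groups carried Cas9 from the lentiCas9-Blast vector. Control gRNA-transduced cells received a guide against the Rosa26 locus, and Slc2a1 gRNA-transduced cells a guide against Slc2a1, the gene of the glucose transporter GLUT1. Slc2a1/3/5/6/8 gRNA-transduced cells had first received guides against Slc2a3, Slc2a5, Slc2a6 and Slc2a8 with fluorescent reporters, were sorted on these and expanded, and then received the Slc2a1 guide. The cultures were pools of edited and unedited cells and not clones, so in these bulk samples fewer cells making an RNA and less RNA per cell cannot be told apart. Slc2a1 itself lay at 26.9 to 59.5 TPM in control, 28.3 to 37.1 TPM in Slc2a1 gRNA-transduced and 19.1 to 31.5 TPM in Slc2a1/3/5/6/8 gRNA-transduced cells, with overlapping ranges, and an edit in the coding sequence need not lower its RNA. Sequencing depth was 21838805 to 30537105 estimated counts per sample. All 8 plasma cell markers of a list (Sdc1, Prdm1, Xbp1 and others) reached 1 TPM, and none of 4 markers of earlier B cells did. Of 4 macrophage markers Cd68 alone reached 1 TPM, and the list summed to 57.0 to 97.4 TPM in control and 31.1 to 47.2 TPM in edited cells; its part in the results was not tested.

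The ribosome translates messenger RNA into protein: the small subunit reads the codons, and the large subunit joins the amino acids. Each core protein is used in a single copy per ribosome, apart from the acidic proteins of the stalk, and surplus protein is degraded, so that cells hold the output of these genes in proportion. Their messengers are short, very abundant in secretory cells and start with a run of pyrimidines (the TOP motif), through which the growth-regulating kinase mTORC1 controls their translation. Mammalian genomes also hold many processed copies of these genes, made by reverse transcription of their messengers.

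For a few core genes most of the TPM stood under the symbol of a near-identical copy. Rps27, a zinc-finger protein of the small subunit, was listed at 37.8 to 110 TPM in control cells, against a median of 2362 TPM over the 77 core genes. Its retrotransposed copy Rps27rt was the most abundant of all 94, at 10804, 12610 and 11606 TPM in the 3 control samples. Rps27 lies on chromosome 3 (chr3:90212522-90213651, minus strand) and Rps27rt on chromosome 9 (chr9:114982366-114982739, minus strand; GRCm38, GENCODE M21). The transcripts of the pair were identical over 341 aligned bases with 0 mismatches. The first bases of the pair are shown because they are where the 2 loci part: 10 bases before the annotated start and 20 from it, 5′ to 3′, with the pyrimidine run at the start in capitals (RefSeq, GRCm38.p6; chr3:90213629-90213658 and chr9:114982720-114982749, both minus strand).
Rps27: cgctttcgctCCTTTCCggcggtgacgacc
Rps27rt: ttatcccttgCTTTCCggcggtgacgacct
From the shared CTTTCC onward the loci had the same letters, while the upstream bases differed. Reads within the identical stretch cannot be placed on either locus by their sequence, and values for Rps27 and Rps27rt are therefore uncertain as separate genes.

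Such copies were counted for every core gene by comparing its coding sequence with all annotated transcripts. For 63 of the 77 core genes, the named gene held at least 95% of the TPM summed over itself and its near-identical copies. For 6 genes it held under 50%. Beside Rps27 (0.635%), these were Rpl12 (3.42%), Rpl5 (4.07%), Rpl10 (4.87%), Rpl27a (11.2%) and Rps23 (49.0%). The copy with the most TPM was 100% identical to the aligned coding sequence in each of the 6 families, over the full length in 4 of them, over 99.3% for Rpl27a and over 98.4% for Rps23. For Rpl12, a protein of the stalk base, it was Gm10275 with a mean of 4768 TPM over the 9 samples (chr10:29698746-29699380, minus strand). For Rpl5, which carries the 5S rRNA into the ribosome, it was Gm15500 with 2888 TPM (chr7:114705217-114706235, minus strand). For Rpl10, which joins the large subunit last, it was Rpl10-ps3 with 3784 TPM (chr9:50344201-50344968, minus strand), while Rpl10 itself had 193 TPM.

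**Figure D1:**
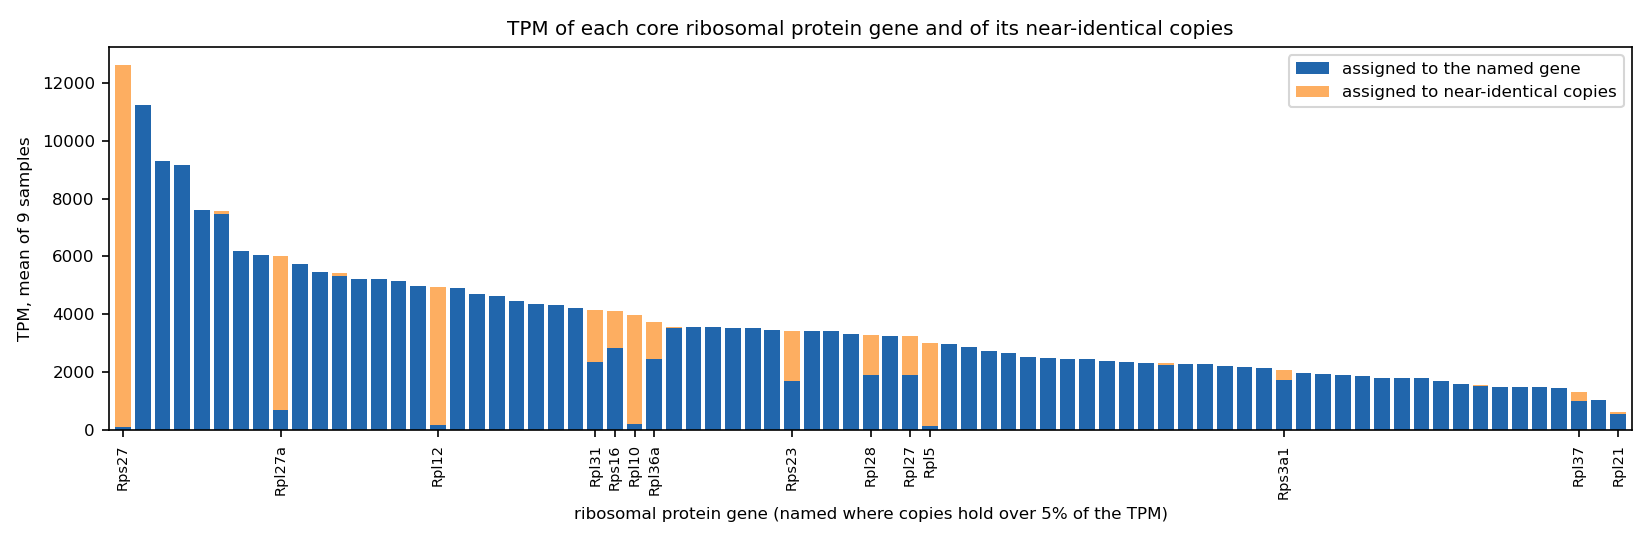
TPM (mean of 9 samples, linear axis) of the 77 core ribosomal protein genes, one stacked bar each, with the part listed under the gene's own symbol below and the part under near-identical copies above. The 14 genes named on the axis are those with under 95% on their own symbol, and in the bars of Rps27, Rpl12, Rpl5, Rpl10 and Rpl27a the copies hold nearly the whole height.

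By symbol, the core genes spanned control means from 68.7 TPM (Rps27) to 9813 TPM (Rps14), a ratio of 143. With copies added, they spanned 601 TPM (Rpl21, a large subunit protein) to 11742 TPM (Rps27), a ratio of 19.6 around a median of 3083 TPM. TPM is a level per length, so these levels can be compared between genes. By symbol 70 of the 77 core genes reached 1000 TPM in control cells, and 76 did with copies added. After Rps27rt, the highest members by symbol were Rps14 of the 40S platform, Rpl41, the smallest protein of the ribosome, Rplp1 of the stalk, and Rpl36. At the other end, Rpl10l, Rpl32l, Rpl39l, Rps12l1 and Rps4l were listed at 0 in all 9 samples. Rpl10l and Rpl39l are known as testis forms of X-linked genes. Rpl6l, Rps23rg1 and Rps3a3 had control means of 0.058, 0.135 and 0.682 TPM, and with the 5 at 0 they made up the 8 members not tested. The muscle form Rpl3l passed the count filter at a control mean of 0.341 TPM.

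Together the 94 genes made up a large part of the messenger pool on the TPM scale. Their summed share was 24.3%, 24.3% and 24.7% of TPM in the control samples, 25.1%, 27.0% and 27.5% in Slc2a1 gRNA-transduced cells and 26.8%, 26.2% and 26.9% in Slc2a1/3/5/6/8 gRNA-transduced cells. Every sample of the edited groups lay above every control sample, and the ranges of the 2 edited groups overlapped. The means were 24.4% ± 0.261, 26.5% ± 1.28 and 26.7% ± 0.352 (SD, n = 3 each). These sums over the members are given as a description, without a test. As a share of estimated counts, where long messengers weigh more, the members held 9.74% to 11.1%, 11.04% to 12.9% and 10.8% to 13.4%, and the ranges overlapped.

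**Figure D2:**
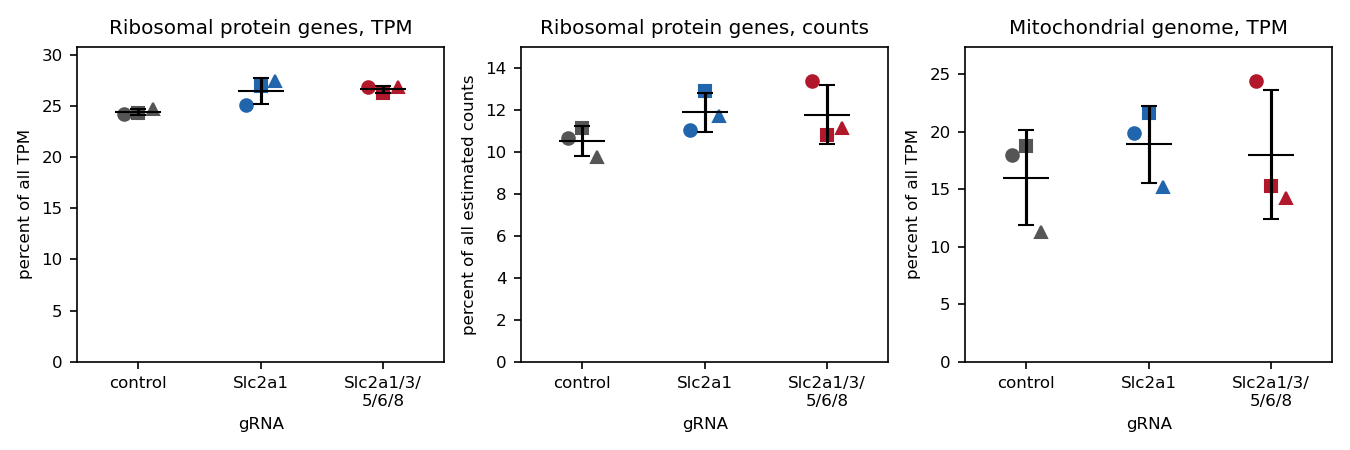
Share of TPM (left) and of estimated counts (middle) held by the 94 genes, and share of TPM held by mitochondrially encoded transcripts (right), in each sample; circle, square and triangle are replicates 1, 2 and 3, and bars are mean ± SD. On the TPM scale control samples sit at 24.3% to 24.7% with all 6 edited samples above them, while in the other panels the groups overlap.

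Shares depend on what else is in the pool. Mitochondrially encoded transcripts held 11.3% to 18.8% of TPM in control, 15.2% to 21.6% in Slc2a1 gRNA-transduced and 14.3% to 24.4% in Slc2a1/3/5/6/8 gRNA-transduced cells. Immunoglobulin genes, the main product of a plasma cell, held 12.1% to 15.4%, 9.45% to 11.8% and 9.34% to 12.2%, lower in edited cells with no overlap between control and Slc2a1 gRNA-transduced samples. The part of these transcripts in the share of the ribosomal protein genes was not tested, except that without the mitochondrial transcripts the mean shares were 29.1%, 32.7% and 32.6%.

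The first comparison asked how the members differed once GLUT1 alone was targeted. Most were slightly higher in Slc2a1 gRNA-transduced cells. Over the 86 tested members the median log2 fold change was 0.26 (quartiles 0.21 and 0.32), and 83 of the 86 were above 0, while the median over all 13834 genes was -0.00. Only Rplp1 passed the test (edgeR's quasi-likelihood test with Benjamini-Hochberg adjustment, adjusted p under 0.05), which is 1.16% of the members tested, where 2.25% of all genes were called higher. None was called lower, where 2.39% of all genes were. At an unadjusted p under 0.05, edgeR had 32 members higher and 0 lower, where it had 1516 of all 13834 genes higher and 1521 lower. At an adjusted p under 0.05, DESeq2 called 13 members higher and 0 lower, beside 4.54% and 4.53% of all genes. Limma on log2(TPM + 1) called 0 of all 13834 genes, members included, and had 3 members higher and 0 lower at an unadjusted p under 0.05. On that TPM scale the member median was 0.0939, with the median of all genes at -0.11. In 50 members (58.1%) all 3 Slc2a1 gRNA-transduced samples lay above all 3 control samples in scaled counts, where 13.2% of all genes did so. In 0 members did they all lie below, where 13.0% of all genes did so.

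The subunits did not part. The median log2 fold change was 0.26 over the 60S core genes and 0.27 over the 40S core genes, and single core genes ran from -0.06 (Rpl10) to 0.50 (Rplp1). Members are short, with a median length of 705 bases against 2354 for all tested genes. Over the other tested genes the rank correlation of log2 fold change with length was -0.07 in this comparison, given as a description, since all genes share the same libraries. A fit with length-corrected offsets called 5 members higher, beside 4.18% of all genes. In that fit the member median was lower, at 0.19, with the median of all genes at 0.01.

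**Figure D3:**
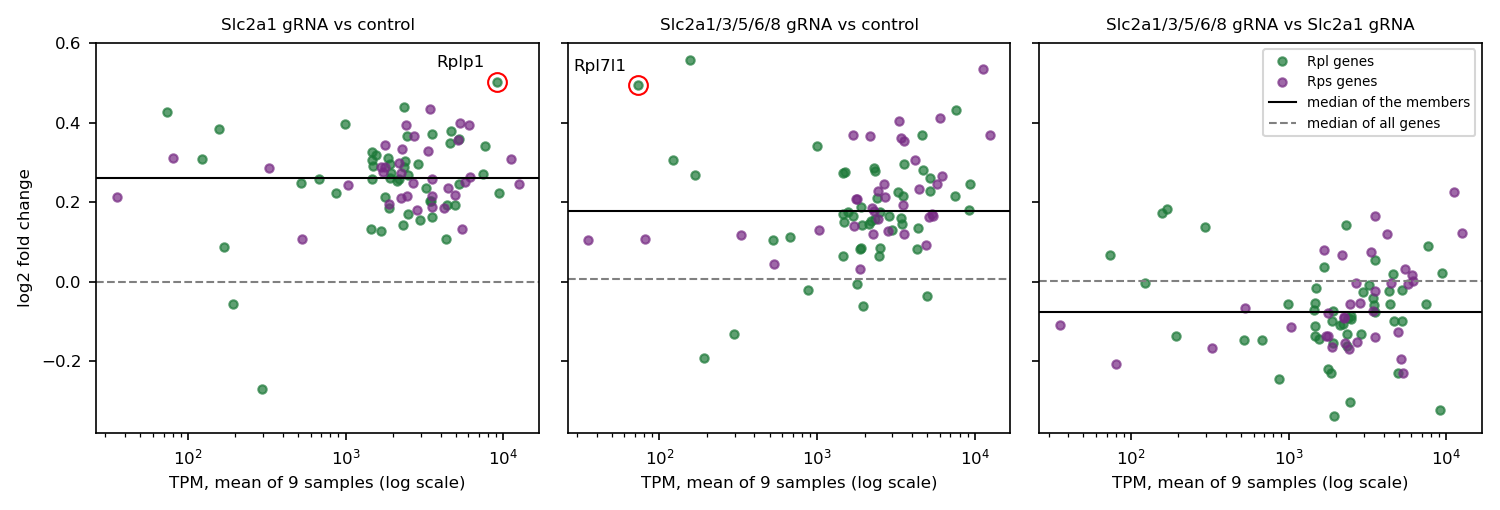
Log2 fold change of each tested member against its mean TPM over the 9 samples (log axis) in the 3 comparisons, with Rpl and Rps genes in separate colours, the medians of the members (solid line) and of all genes (dashed line), and red rings around members that passed the test. Rpl3l, with few counts, is left out, and the member medians lie at 0.26, 0.18 and -0.07 from left to right.

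Rplp1 and Rplp2 form the flexible stalk of the large subunit on Rplp0, and the stalk recruits the elongation factors. Rplp1 lay at 8469, 7944 and 8377 TPM in control, 10594, 10394 and 10604 TPM in Slc2a1 gRNA-transduced and 8727, 9428 and 7859 TPM in Slc2a1/3/5/6/8 gRNA-transduced cells. All Slc2a1 gRNA-transduced samples were above all other samples in TPM. The log2 fold change against control was 0.50 ± 0.13 (SE; adjusted p = 0.0424), higher in 3 of 3 same-numbered pairs. Over 21 alternatives of the analysis it was 0.35 to 0.60 with adjusted p from 0.000577 to 0.241, and the call was lost when any single control or Slc2a1 gRNA-transduced library was left out. The call was also lost without the replicate block, with total-count scaling and with limma at either pseudocount. Rplp0 had 3176, 3277 and 3079 TPM in control and 3590, 3785 and 3721 TPM in Slc2a1 gRNA-transduced cells. These ranges did not overlap either, and the log2 fold change of 0.37 did not pass (adjusted p = 0.142). Rplp2, with 0.30 (adjusted p = 0.162), and the 5S rRNA partners Rpl5 and Rpl11, with 0.31 each (adjusted p = 0.27 and 0.197), did not pass. With its copies added, Rpl5 had 0.20 (adjusted p = 0.504).

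The member named next by adjusted p was close in size to Rplp1. Rpl14, a large subunit protein, was at 2352, 2049 and 2070 TPM in control and 2835, 2451 and 2311 TPM in Slc2a1 gRNA-transduced cells. The ranges overlapped slightly, and in counts the log2 fold change was 0.44 ± 0.12 (adjusted p = 0.0577). Of 11 proteins lining the peptidyl transferase centre or the exit tunnel none passed, with a median of 0.19. Of 10 proteins of the 40S head, channel entry and decoding centre none passed, with a median of 0.28. Of all genes 2.25% were called higher and 2.39% lower, so no call in lists this short is near those shares.

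The second comparison set the cells with all 5 guides against the same control samples, so its values are not independent of the first. Here the members were again mostly above 0, with wider spread. The median log2 fold change was 0.18 (quartiles 0.12 and 0.27), 80 of 86 were above 0, and the 60S and 40S medians were 0.17 and 0.21. Only Rpl7l1 passed the test, where 8.49% of all genes were called higher, and 0 members were called lower, where 7.44% of all genes were. At an unadjusted p under 0.05, edgeR had 10 members higher and 0 lower, where it had 16.7% of all genes higher and 14.7% lower. At an adjusted p under 0.05, DESeq2 called 5 members higher and 0 lower, beside 9.79% and 8.78% of all genes, and limma on log2(TPM + 1) called 0 members, beside 0.853% and 2.28% of all genes. On that TPM scale the member median was 0.0962. In 14 members (16.3%) the Slc2a1/3/5/6/8 gRNA-transduced samples all lay above control, where 17.0% of all genes did so. In scaled counts they all lay below in 1 member, Rpl10, with a log2 fold change of -0.19 (adjusted p = 0.281), where 17.2% of all genes did so. Rpl10 was at 226, 197 and 225 TPM in control and 155, 201 and 178 TPM in these cells, where the ranges overlapped, and with its copies added its log2 fold change was 0.16.

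Rpl7l1, a paralog of Rpl7 that acts in assembly of the large subunit (chr17:46773907-46782672, minus strand), was at 66.4, 62.9 and 70.4 TPM in control and 65.2, 70.5 and 119 TPM in Slc2a1/3/5/6/8 gRNA-transduced cells. One library, replicate 3, stood above the others, and the ranges overlapped on the TPM scale. In scaled counts (CPM with TMM factors) it was at 100.2, 119 and 102 in control and 148, 124 and 179 in these cells, without overlap. The log2 fold change in counts was 0.49 ± 0.15 (adjusted p = 0.0417), and on log2(TPM + 1) it was 0.30. Without replicate 3 of this group the count value was 0.29 (adjusted p = 0.241). Over 21 alternatives the adjusted p ran from 0.00187 to 0.409, and the call was also lost without any single control sample, without replicate 1 of this group or without Slc2a1 replicate 2. Total-count scaling and limma at either pseudocount lost it as well. In Slc2a1 gRNA-transduced cells Rpl7l1 had 70.0, 72.9 and 63.9 TPM, close to control on the TPM scale (0.05 on log2(TPM + 1)). In the count fit the difference was 0.43 and did not pass (adjusted p = 0.117). Rps21, a small protein of the 40S subunit, was higher by 0.41 ± 0.14 on the log2 scale (adjusted p = 0.0705), with 5034, 5187 and 5862 TPM in control and 6416, 6150 and 6596 TPM in these cells. Rps23, of the decoding centre, and Rpl35a had 0.37 each (adjusted p = 0.0713 and 0.0801).

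The shift differed between same-numbered pairs. Against the control sample of the same number, the median log2 difference over the tested members was 0.15, 0.31 and 0.31 in the 3 Slc2a1 gRNA-transduced samples and 0.34, -0.06 and 0.24 in the 3 Slc2a1/3/5/6/8 gRNA-transduced samples. It was above 0 in 3 of 3 pairs of the first group and in 2 of 3 of the second. In the second, the samples set side by side share a number only, since correlation did not pair them. The median over members depended on single libraries in the second group: without replicate 1 it was 0.06, and without replicate 2 it was 0.31.

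**Figure D4:**
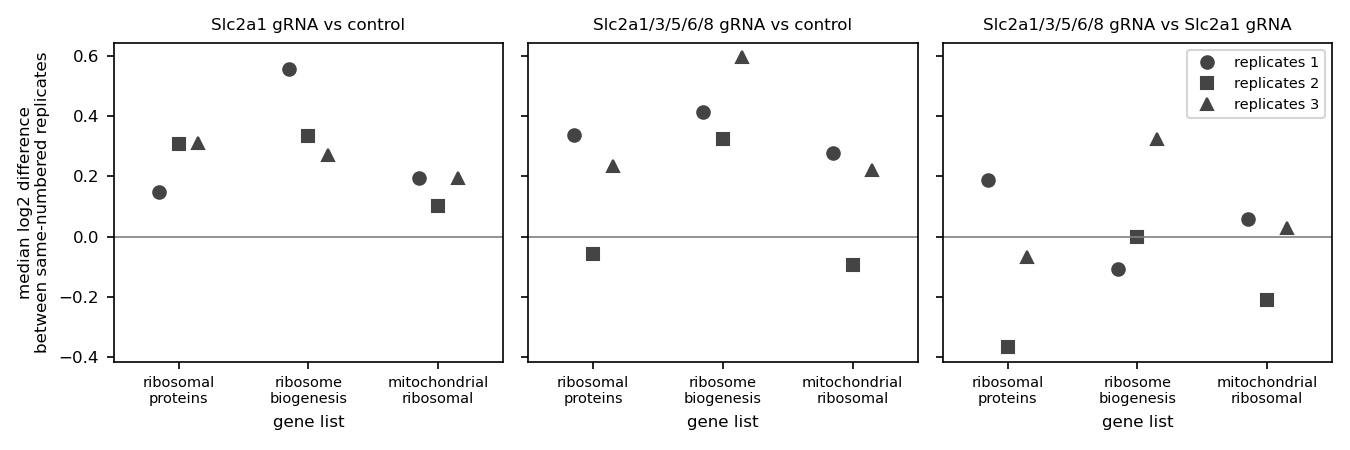
Median log2 difference of each same-numbered pair of samples for the tested members and for the lists of ribosome biogenesis and mitochondrial ribosomal protein genes. For the members, replicate 2 of the Slc2a1/3/5/6/8 gRNA-transduced cells lies at -0.06 against control, and the other 5 pairs lie above 0.

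Between the 2 edited groups no member passed edgeR's test, where 1.36% of all genes were called higher and 0.947% lower in Slc2a1/3/5/6/8 gRNA-transduced cells. At an unadjusted p under 0.05, edgeR had 0 members higher and 4 lower, where it had 10.4% of all genes higher and 8.68% lower. At an adjusted p under 0.05, DESeq2 called 0 members higher and Rpl24 lower, beside 2.94% and 2.54% of all genes, and limma called 0 members, beside 0.152% of all genes higher and 0.0723% lower. Rpl24, which bridges the subunits, had -0.34 ± 0.12 (adjusted p = 0.142). The median over members was -0.07, with 21 of 86 above 0, and in scaled counts the groups were separate in 0 members in either direction, where 10.6% and 10.3% of all genes were. On the TPM scale the groups were separate for Rplp1. Rplp1 had -0.32 ± 0.13 (adjusted p = 0.188), so its call against control in one edited group and not in the other was not shown to be a difference between them.

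Members differed in how far replicates spread. The median coefficient of variation over core genes was 5.37% in control, 4.55% in Slc2a1 gRNA-transduced and 7.15% in Slc2a1/3/5/6/8 gRNA-transduced cells, and it was over 10% in 9, 14 and 18 genes. Rpl8, of the peptidyl transferase centre, was the steadiest core gene in control, at 0.727%. Rps14 was among the least steady, with 8945, 11703 and 8792 TPM in control, 9351, 11797 and 11437 TPM in Slc2a1 gRNA-transduced and 17422, 10410 and 11455 TPM in Slc2a1/3/5/6/8 gRNA-transduced cells. Slc2a1/3/5/6/8 replicate 1 was the highest sample, and control replicate 2 lay within the range of the edited groups. Its log2 fold change in the second comparison, 0.53 ± 0.26, was larger than that of Rpl7l1 and did not pass (adjusted p = 0.185). It was 0.05 without replicate 1 of this group and 0.92 without replicate 2.

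**Figure D5:**
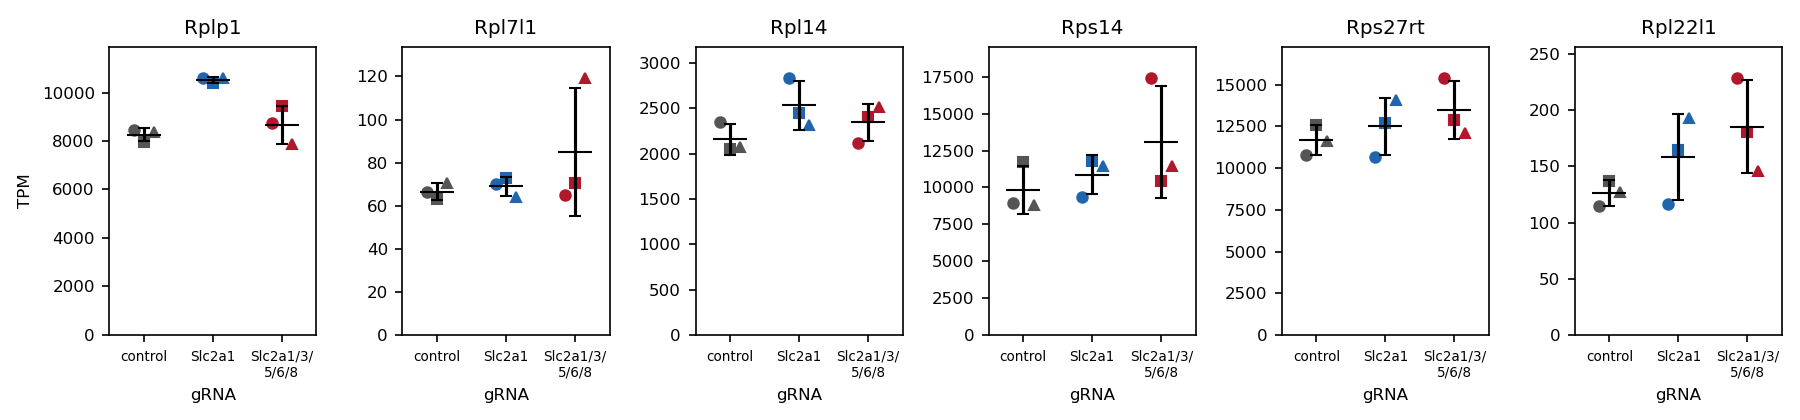
TPM of Rplp1, Rpl7l1, Rpl14, Rps14, Rps27rt and Rpl22l1 in each sample; circle, square and triangle are replicates 1, 2 and 3, and bars are mean ± SD. Only Rplp1 shows a group of samples wholly above the other 2 groups, and Rps14 and Rpl7l1 each show a single high sample among the Slc2a1/3/5/6/8 gRNA-transduced cells.

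Several expressed paralogs lay below their partners. Rpl22l1, which can replace Rpl22 in the large subunit, was at 115, 137 and 127 TPM in control, 117, 165 and 193 TPM in Slc2a1 gRNA-transduced and 229, 181 and 146 TPM in Slc2a1/3/5/6/8 gRNA-transduced cells. In the last group all samples lay above control in TPM, while in scaled counts the ranges overlapped. The log2 fold change of 0.56 ± 0.25 did not pass (adjusted p = 0.145), and it was 0.05 without replicate 1 of this group and 0.81 without replicate 2. Its partner Rpl22 was at 2925 to 3011 TPM in control and 2585 to 3151 TPM in that group. Rpl36al was at 813 to 932 TPM in control, below Rpl36a at 2170 to 2614 TPM. Rps27l, known as a p53 target, was at 503 to 601 TPM in control, 488 to 562 TPM in Slc2a1 gRNA-transduced and 505 to 534 TPM in Slc2a1/3/5/6/8 gRNA-transduced cells, and these ranges overlapped. It lay above Rps27 by symbol and below Rps27 with its copies added. Of 14 tested genes of the list of paralog pairs, 0, 1 (Rpl7l1) and 0 passed in the 3 comparisons, where 2.25%, 8.49% and 1.36% of all genes were called higher.

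With near-identical copies added to each core gene, 83 members were tested and Rplp1 and Rpl7l1 were again the only calls. In the fit by symbol, 2.25% and 8.49% of all genes were called higher in the first and second comparison. Summed Rps27 had a log2 fold change of 0.25 against control in Slc2a1 gRNA-transduced and 0.37 in Slc2a1/3/5/6/8 gRNA-transduced cells. Summed Rpl12 had 0.37 and 0.31, and summed Rpl10 had 0.27 and 0.16, the first of which stood at -0.06 by symbol. Summed Rpl5 had 0.20 in both comparisons, against 0.31 by symbol in both. None of these passed.

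The starts of the members were compared with those of other genes in the RefSeq promoter table, which held 69 of the 94. The unbroken run of C or T from the annotated first base was measured on the gene's strand, at the start with the longest run where a gene had several. A run of 5 or more bases beginning with C was found in 15 of the 69 (21.7%) and in 2.93% of 26956 other genes. In 34 of the 69 the annotated first base was neither C nor T, which says only that these letters are not there. Whether transcription began at that base in these cells was not tested, so a run of 0 does not show that a messenger lacks the TOP motif. The starts below are of members named above, with and without a run, and of Rpl15 for its long run, all picked after their values were seen (10 bases before the annotated start and 20 from it, 5′ to 3′, run in capitals, RefSeq, GRCm38.p6).
Rpl14, chr9:120571507-120571536, plus strand: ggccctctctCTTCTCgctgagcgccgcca
Rps21, chr2:180257369-180257398, plus strand: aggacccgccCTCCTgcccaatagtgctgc
Rpl35a, chr16:33056472-33056501, plus strand: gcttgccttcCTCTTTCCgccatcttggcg
Rpl15, chr14:18270967-18270996, minus strand: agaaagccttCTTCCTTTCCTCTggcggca
Rpl7l1, chr17:46782637-46782666, minus strand: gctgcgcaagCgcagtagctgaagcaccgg
Rps23, chr13:90923112-90923141, plus strand: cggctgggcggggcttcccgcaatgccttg
Rplp0, chr5:115559457-115559486, plus strand: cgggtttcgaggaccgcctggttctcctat
The run was 13 bases long in Rpl15, 8 in Rpl35a, 6 in Rpl14 and 5 in Rps21, and a single C in Rpl7l1, and it was 0 in Rps23 and Rplp0.

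Genes that act with the ribosomal proteins were read from lists. Fau, which encodes a ribosomal protein fused to a ubiquitin-like part, and Rack1, a 40S protein with another kind of name, fell outside the symbol rule. Their log2 fold changes were 0.24 and 0.22 in the first comparison and 0.16 and 0.30 in the second, and neither passed. Among 20 other messengers of the TOP class, such as elongation factors, 1 passed in each, Npm1 in both, with list medians of 0.17 and 0.10. Among 78 mitochondrial ribosomal proteins 0 and 5 passed, all 5 higher, beside 2.25% and 8.49% of all genes called higher, with list medians of 0.16 and 0.14. At an unadjusted p under 0.05, edgeR had 20 higher and 0 lower in the first, beside 1516 and 1521 of all 13834 genes, and 21 higher and 4 lower in the second, beside 16.7% and 14.7% of all genes. On log2(TPM + 1) the medians of the mitochondrial list were -0.01 and 0.03, with 38 and 47 of 78 above 0. Those of the TOP list were 0.01 and 0.04, with 11 and 12 of 20 above 0. The medians of all genes on that scale were -0.11 and -0.05.

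Many of the factors that assemble ribosomes passed the test. Of 56 ribosome biogenesis genes, 19 were higher and 0 lower in Slc2a1 gRNA-transduced cells, and 30 were higher and 0 lower in Slc2a1/3/5/6/8 gRNA-transduced cells, beside 2.25% and 8.49% of all genes called higher. The list medians were 0.39 and 0.45. By step, 0 and 4 of 11 RNA polymerase I genes were called higher, and 6 and 4 of 9 snoRNP genes. So were 4 and 8 of 15 small subunit assembly factors and 7 and 12 of 19 large subunit assembly factors. Called or not, 10 of 11 RNA polymerase I genes and all of the snoRNP genes and assembly factors lay above 0 in both comparisons. Npm1, a nucleolar chaperone, was at 1093, 1059 and 1181 TPM in control, 1529, 1404 and 1482 TPM in Slc2a1 gRNA-transduced and 1234, 1624 and 1740 TPM in Slc2a1/3/5/6/8 gRNA-transduced cells. Both edited groups lay above control, by 0.54 and 0.49 on the log2 scale (adjusted p = 0.0222 and 0.0127). Heatr3, which escorts Rpl5 into the nucleus, was at 10.2, 10.97 and 12.8 TPM in control, 19.1, 15.5 and 16.2 TPM in Slc2a1 gRNA-transduced and 15.4, 22.2 and 26.8 TPM in Slc2a1/3/5/6/8 gRNA-transduced cells. It rose by 0.84 and 1.07 on the log2 scale (adjusted p = 0.00879 and 0.000519), with no overlap with control. Nop56, a core protein of box C/D snoRNPs, rose by 0.73 and 0.97 (adjusted p = 0.0202 and 0.00158). The number of calls in the first comparison depended on single libraries: it was 0 without any one control library or Slc2a1 replicate 2 and 1 without Slc2a1 replicate 1. Calls over all genes fell in the same fits, from 311 higher to 42, 6 and 23 without control replicates 1, 2 and 3. They fell to 38 and 15 without Slc2a1 replicates 1 and 2. In the second comparison the number of calls in the list stayed between 15 and 38, where 340 to 1388 of all genes were called higher. The list median in the first comparison stayed between 0.32 and 0.48 when a control or Slc2a1 library was left out. DESeq2 gave 27 and 37, beside 4.54% and 9.79% of all genes called higher. Total-count scaling gave 10 and 28, beside 1.27% and 5.94% of all genes. Limma on log2(TPM + 1) gave 0 and 2, where it called 0 of all 13834 genes in the first comparison and 0.853% higher in the second, and the list medians were then 0.22 and 0.33. Between the edited groups 0 of the 56 passed, where 1.36% of all genes were called higher and 0.947% lower. At an unadjusted p under 0.05 edgeR had 7 higher and 2 lower, beside 10.4% and 8.68% of all genes.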

How the data were processed

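Poly(A)-primed RNA (SMARTseq V4) was sequenced in 9 samples. The authors quantified reads with Salmon 1.5.1 and deposited, per gene symbol, estimated counts and TPM values; the transcript annotation they used is not given in the sources used here. Estimated counts were rounded and fitted with edgeR 4.0.16 (TMM scaling, filterByExpr, quasi-likelihood F test, all 9 samples, replicate number as a block), with Benjamini-Hochberg adjustment over 13834 genes and a threshold of 0.05. Scaled counts are CPM computed with TMM factors. Same-numbered samples correlated in their deviations at 0.163 to 0.322 for Slc2a1 gRNA-transduced and control samples, where differently numbered ones stood at -0.299 to 0.061. For Slc2a1/3/5/6/8 gRNA-transduced and control samples the same-numbered values were -0.113 to 0.191, and between the edited groups -0.149 to -0.04. Correlation thus followed the numbers in the first comparison only. With 3 samples per group this is weak, and whether the numbers mark true pairs was not tested. The labels call the samples replicates, and the paper describes 3 biological replicates per population. Neither says whether these were separate cultures, so p-values measure the spread between these samples. Alternatives were DESeq2 1.42.0, limma 3.58.1 on log2(TPM + 1) and log2(TPM + 0.1), total-count scaling, no filter and no block. Others were length offsets, the 2 groups alone, at least 10 counts in every sample, and each sample left out. TMM factors without ribosomal protein and mitochondrial genes, and counts with copies named as pseudogenes or near-identical copies summed, completed the 21. The scripts were tested on simulated data. Members, lists and named genes (calls, extremes of level, lowest adjusted p) were chosen with earlier results of these data known. Copies were found by aligning coding sequences to GENCODE M21 transcripts (GRCm38); the summing of copies was chosen after seeing the data. Symbols absent from that annotation were not searched.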

Additional observations from a re-analysis of the deposited data

How the results depend on the processing

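The number of members called higher in Slc2a1 gRNA-transduced cells, 1 as reported, was 13 with DESeq2, 0 without the replicate block, 0 with total-count scaling, 9 without a count filter, 43 with only those 2 groups, 5 with length offsets, 0 with limma at either pseudocount (which called 0 and 9 of all genes higher), and 0 to 10 when 1 sample was left out (0 without any single control or Slc2a1 sample, 9 and 10 without Slc2a1/3/5/6/8 replicate 1 and 2, where 634 and 439 of all genes were called higher, and 6 to 458 without a control or Slc2a1 sample). The median over members, 0.26, was 0.17 with total-count scaling and 0.0939 with limma at +1 and 0.0940 at +0.1, which moved the median of all genes by -0.10, -0.11 and -0.16, and 0.18 to 0.36 with 1 sample left out. With length offsets the median over members was 0.19 here, and -0.003 between the edited groups. In Slc2a1/3/5/6/8 gRNA-transduced cells the number higher, 1 as reported, was 5 with DESeq2, 0 with total-count scaling, 12 without a filter, 10 with length offsets, 0 with limma at either pseudocount, and 0 to 21 with 1 sample left out (21 without its replicate 2, 0 without its replicate 1 or 3, where 1007, 1342 and 475 of all genes were called higher). The number lower was 0 to 1, the 1 being Rpl37rt without replicate 3. Between the edited groups DESeq2 called 1 lower. The shares of 24.4%, 26.5% and 26.7% of TPM became 10.5%, 11.9% and 11.8% of counts, 29.1%, 32.7% and 32.6% without mitochondrial transcripts, 26.9%, 29.2% and 29.3% with sequence copies, and 25.5% (control) and 27.8% (all 5 guides) with genes named as pseudogenes. Without the block 0, 1 and 0 members were called in the 3 comparisons. Of all genes, 1.93%, 7.2% and 0.528% were then called higher, and 1.93%, 6.43% and 0.405% lower. No value changed sign in a call. Genes called in Slc2a1 gRNA-transduced cells, 311 higher and 331 lower of 13834 tested, were 628 and 627 with DESeq2, 706 and 742 without a filter (of 26457), 1121 and 1147 with those 2 groups alone (of 13590) and 176 and 561 with total-count scaling. In Slc2a1/3/5/6/8 gRNA-transduced cells 1175 genes were higher, against 1355 with DESeq2, 822 with total-count scaling, 1477 without a filter (of 26457) and 1508 with length offsets. The cause of these shifts was not tested.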

Other observations

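Some near-identical copies of ribosomal protein genes were listed at very different levels between samples of a group. Rps12-ps3, identical to the coding sequence of Rps12 (chr19:59322290-59322783, plus strand, GRCm38, GENCODE M21), was at 140, 0 and 0 TPM in control, 0 in all 3 Slc2a1 gRNA-transduced samples and 34.3, 0 and 533 TPM in Slc2a1/3/5/6/8 gRNA-transduced cells. It did not pass the test in any comparison (edgeR's quasi-likelihood test, adjusted p = 0.176, 0.533 and 0.0947). Rpl36a-ps2 lay between 609 and 2068 TPM over the 9 samples. Gm2000, a copy of Rpl35, was at 15.2 to 39.4 TPM in 8 samples and at 171 TPM in Slc2a1/3/5/6/8 replicate 3, and Rpl37rt had its highest value, 601 TPM, in the same sample. Gm10275, the abundant copy of Rpl12, was at 4183 to 4476 TPM in control and 4620 to 5447 TPM in the 6 edited samples, with no overlap, at log2 fold changes of 0.39 and 0.32 that did not pass (adjusted p = 0.186 and 0.21).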
